A study of Xenopus laevis with 4 samples.

Results

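The genes described here encode 3 carrier proteins of blood plasma: rbp4, the retinol carrier, ttr (transthyretin), a carrier of thyroid hormone, and tf (transferrin), the iron carrier. They were taken as all probe sets whose platform annotation gives exactly 1 gene symbol and whose symbol is rbp4.L, rbp4.S, ttr.L, tf.L or tf.S. This gave 5 of the 7531 genes with such a probe set, each with 1 probe set of the 15491 that are not controls, and all 5 passed the filter on dim values that left 9294 probe sets for testing. *Xenopus laevis* is an allotetraploid frog, and the suffixes .L and .S mark the copies of a gene on its long and short subgenomes, called homeologues. The ttr.S copy had no probe set of its own in the annotation, so ttr could not be compared between homeologues.

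The arrays measured total RNA from pancreatic buds of anaesthetised *Xenopus laevis* tadpoles, dissected before the buds fuse. Dorsal and ventral buds were represented by 2 pools each, a pool being between 1000 and 3000 buds hybridised to its own 1-colour Affymetrix array. No genotype, strain, stage or treatment other than the anaesthetic is given, and all pools share the same rearing and handling in the labels. Nothing in the labels says whether pools of a kind came from separate clutches or collections, so the p-values reflect the spread of these samples alone, and that spread may be technical.

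The liver is the main source of all 3 proteins in vertebrate plasma, and the ventral bud arises beside the liver and bile duct. In mammals the retinol-loaded product of rbp4 travels in a complex with transthyretin, which keeps this small protein from being lost through the kidney, and delivers retinol to cells as the precursor of retinoic acid. Transthyretin itself binds thyroid hormones. Transferrin binds ferric iron and is taken up through the transferrin receptor.

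Values are MAS5 intensities, which were at a mean of 100 on every array, with medians between 21.8 and 24.2. A log2 difference is dorsal minus ventral on log2(intensity + 6), with the moderated standard error (SE) of limma, and it understates the change of dim genes. Benjamini-Hochberg adjustment ran over all 9294 probe sets, and a call needed an adjusted p below 0.05. The Tag control probe sets, designed to match no transcript of the sample, reached 21.5 at most and serve as a mark of background. This maximum was in ventral replicate 1. The highest Tag controls of dorsal replicates 1 and 2 and ventral replicate 2 were 11.7, 12.6 and 9.37. The number of arrays limits the precision. Across all tested probe sets the ventral arrays correlated at r = 0.981 and the dorsal arrays at 0.949, while dorsal replicate 1 correlated with the ventral arrays at 0.962 and 0.954 and dorsal replicate 2 at 0.943 and 0.938. The labelled tissue was borne out by pancreas markers, with the early pancreas gene pdia2.L at 2483 and 977 in dorsal pools, against 1930 and 1039 in ventral pools, and with ins.L at 1383 and 1235 in dorsal pools, against 32.7 and 26.3 in ventral pools.

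The L copy of rbp4 read lower in both dorsal pools than in either ventral pool. Its probe set read 52.8 and 198 in dorsal replicates 1 and 2, against 709 and 641 in ventral replicates 1 and 2. Both ventral arrays lay above both dorsal arrays, and the lowest ventral array was 3.24 times the highest dorsal one. The mean was 125 ± 103 in dorsal and 675 ± 47.6 in ventral buds (SD, n = 2 each). The fitted log2 difference was -2.63 ± 0.51 (SE), with a 95% interval of -3.83 to -1.44, or 6.21-fold lower in dorsal buds. It did not pass in limma after adjustment over all probe sets (unadjusted p = 0.00123, adjusted p = 0.117). Only 5 of the 9294 probe sets lay farther in the ventral direction. Without dorsal replicate 1 the difference was -1.74, and without dorsal replicate 2 it was -3.53; both of these fits passed, with the lone dorsal array taken to vary like the ventral pair, and the adjusted p ran from 2.31e-09 to 0.943 over all alternatives.

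The S copy of rbp4 differed in the same direction by a smaller amount. Its probe set read 372 and 696 in the dorsal arrays, against 1208 and 1206 in the ventral arrays. The groups again did not overlap, and the ventral arrays were nearly equal. Dorsal buds averaged 534 ± 229 and ventral buds 1207 ± 1.71 (SD, n = 2 each). The log2 difference was -1.23 ± 0.27 (SE), with a 95% interval of -1.87 to -0.60, and it did not pass in limma (unadjusted p = 0.00255, adjusted p = 0.181). Leaving out dorsal replicate 1 gave -0.79 and leaving out dorsal replicate 2 gave -1.68, and both of these fits passed.

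Transthyretin transcripts showed no such order. The probe set of ttr.L read 231 and 662 in dorsal buds, against 308 and 393 in ventral buds. The dorsal arrays held both the lowest and the highest of the 4 values, with the ventral arrays between them. The mean was 447 ± 305 in dorsal and 351 ± 59.8 in ventral buds (SD, n = 2 each). The log2 difference of 0.17 ± 0.44 (SE) had a 95% interval from -0.86 to 1.20, which spans differences of close to 1 log2 unit in either direction (limma adjusted p = 0.943). The direction rested on which dorsal array was used: the difference was 0.92 without dorsal replicate 1 (adjusted p = 0.00249) and -0.58 without dorsal replicate 2 (adjusted p = 0.0970), with adjusted p-values from 0.00249 to 1.00 over all alternatives. Without ventral replicate 1 it was -0.0045.

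The L copy of transferrin resembled rbp4.L. Its probe set read 8.06 and 47.7 in dorsal buds, against 200 and 119 in ventral buds. Both ventral arrays lay above both dorsal arrays, by at least 2.50 times, and dorsal replicate 1 lay below the highest Tag control. The mean was 27.9 ± 28.1 in dorsal and 160 ± 57.3 in ventral buds (SD, n = 2 each). The log2 difference was -2.55 ± 0.58 (SE), with a 95% interval of -3.92 to -1.17, and it did not pass in limma (unadjusted p = 0.00324, adjusted p = 0.197). Leaving out dorsal replicate 1 gave -1.58 and leaving out dorsal replicate 2 gave -3.51, and both fits passed, while the values without ventral replicates 1 and 2, -2.19 and -2.91, did not.

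The S copy of transferrin was dim on every array, at 28.5 or less. Its probe set read 8.18 and 28.5 in dorsal buds, against 24.0 and 12.9 in ventral buds. The groups overlapped, and only dorsal replicate 2 and ventral replicate 1 lay above 21.5, the highest Tag control of any array. Against the highest Tag control of the same array, only dorsal replicate 1 lay below it (8.18 against 11.7). The log2 difference was -0.11 ± 0.44 (SE; 95% interval -1.16 to 0.94; limma adjusted p = 0.964), and its sign turned without dorsal replicate 1 (0.54) and without ventral replicate 1 (0.23).

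**Figure D1:**
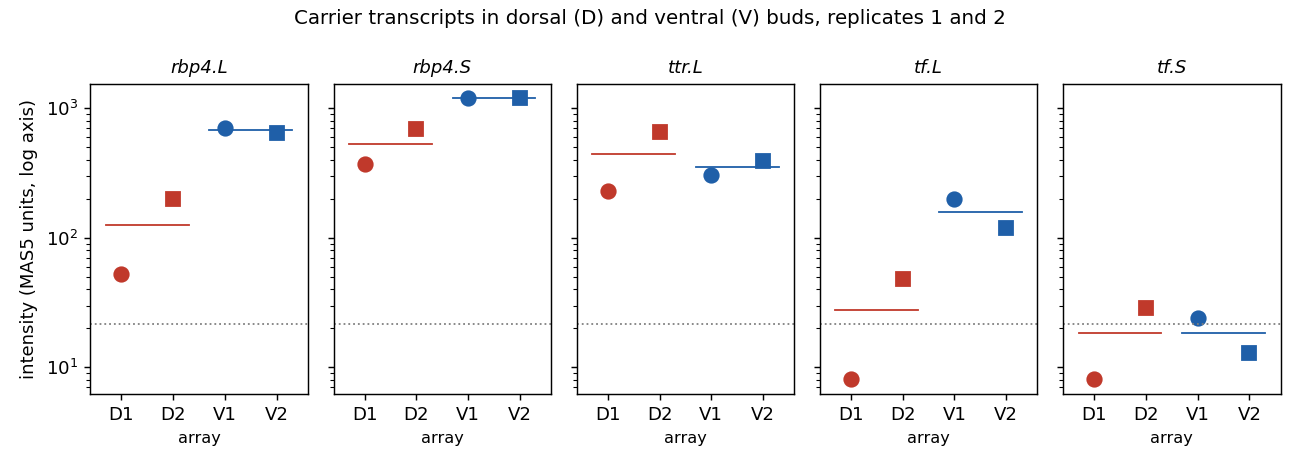
MAS5 intensity on a log axis of the 5 carrier probe sets, with dorsal arrays (D1, D2) in red left of ventral arrays (V1, V2) in blue, circles for replicate 1 and squares for replicate 2. Bars are group means and the dotted line is the highest Tag control at 21.5; rbp4.L, rbp4.S and tf.L have both ventral arrays above both dorsal arrays, while ttr.L and tf.S overlap.

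Of the 5 probe sets, 0 passed over all probe sets in limma, where 0.258% of all tested probe sets did, and 3 (rbp4.L, rbp4.S and tf.L) had an unadjusted p under 0.05 on the ventral side, as did 5.21% of all. For the same 3, both ventral arrays lay above both dorsal arrays, which held for 18.1% of all tested probe sets. In 2 of the 5, rbp4.L and tf.L, the lowest ventral array was at least 2 times the highest dorsal one, against 1.00% of all. As the members were chosen with earlier results of these data known, these counts are a description. The median log2 difference of all tested probe sets was 0.03. In pooled tissue, fewer cells of a type and less RNA per cell cannot be told apart.

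**Figure D2:**
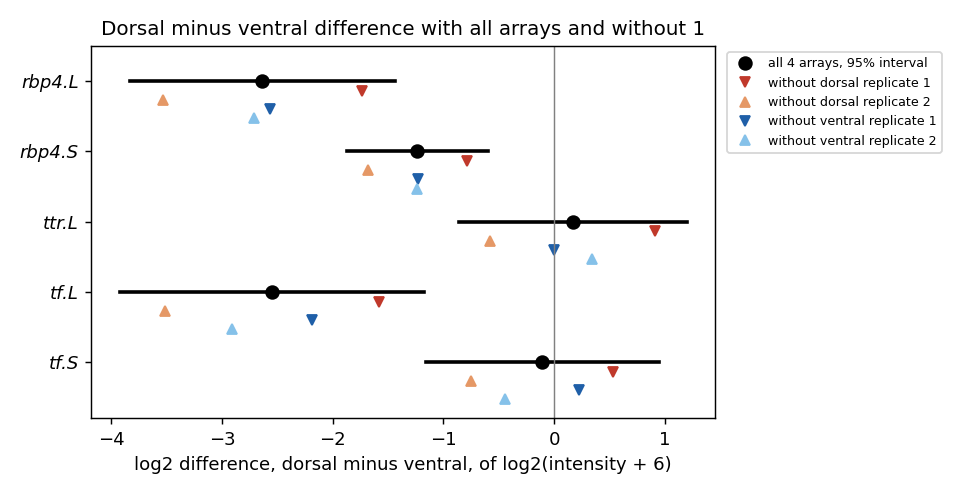
Log2 difference, dorsal minus ventral, of log2(intensity + 6) for each carrier gene; black points with lines are the fit to all 4 arrays with its 95% interval, and triangles drawn below them are the values without 1 array. The triangles of rbp4.L, rbp4.S and tf.L all lie below 0, and those of ttr.L and tf.S lie on both sides of it, from -0.58 to 0.92 and from -0.75 to 0.54.

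Whether the bud difference itself differed between homeologues was tested on the ratio of L to S within each array, in limma across all 660 genes with a tested probe set for both copies. For transferrin the L copy lay farther to the ventral side than the S copy, with an L minus S difference of -2.44 ± 0.31 on the log2 scale (SE; 95% interval -3.18 to -1.70). Set against its ventral mean, the log2 ratio of tf.L to tf.S stood at -2.77 and -2.11 in dorsal pools, against 0.026 and -0.026 in ventral pools. The replicates of each bud lay closer in this ratio than in either copy. Its unadjusted p of 9e-05 was the smallest of the 660 pairs, and after adjustment it lay just above the threshold (adjusted p = 0.0591). Leaving out 1 array gave -2.77 to -2.11, with an SE of 0.55 without ventral replicate 1 and 0.52 without ventral replicate 2. Such a fit holds a lone array in a group, so its call rests on the spread of the other bud. With all arrays the call depended on the setting: tf passed with 4 times the pseudocount (-1.87, adjusted p = 0.0442) and with no filter (adjusted p = 0.0125). It did not pass with a pseudocount of 1 (adjusted p = 0.0702), quantile normalization (0.0896), no variance trend (0.0533) or values raised to the highest Tag control (0.260), and the filter at the 60th percentile removed tf.S. Over all alternatives the adjusted p ran from 3.47e-09 to 0.260. By itself tf.L differed by -2.55 and tf.S by -0.11. The tf.S probe set was dim, so a change in tf.S may not have been detectable. In dorsal replicate 1 both copies read below that array's highest Tag control (tf.L 8.06 and tf.S 8.18, against 11.7). The ratio of -2.77 on that array thus compares readings at background level. Between replicates both probe sets moved the same way. Their log2 gaps (replicate 2 minus replicate 1) were 1.93 for tf.L and 1.28 for tf.S in dorsal pools. In ventral pools the gaps were -0.72 for tf.L and -0.67 for tf.S. The cause of this shared movement was not tested.

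For rbp4, where both copies read above the Tag controls on all 4 arrays, the L minus S difference was -1.40 ± 0.30 on the log2 scale, again farther to the ventral side for L (SE; 95% interval -2.11 to -0.68). Relative to its ventral mean, the log2 ratio of rbp4.L to rbp4.S was -1.85 and -0.95 in dorsal pools, against 0.07 and -0.07 in ventral pools. This ratio was lowest in dorsal replicate 1, the array with the lowest intensity of both copies. This difference did not pass over the 660 pairs (unadjusted p = 0.00227, adjusted p = 0.300), but passed without dorsal replicate 1 (-0.95) and without dorsal replicate 2 (-1.85). Over all alternatives its adjusted p ran from 5.13e-06 to 0.470. Over all pairs, 0 passed in limma after adjustment (0% called), and an unadjusted p under 0.05 was reached by 40; L lay farther to the ventral side than S at an unadjusted p under 0.05 in 3.48% of pairs. The median absolute difference between copies was 0.21 and its 95th percentile 0.79, so both carrier pairs lay beyond that percentile, with tf second and rbp4 sixth by size. Whether a probe set reads its own copy alone was not tested, as probe sequences were not used here.

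**Figure D3:**
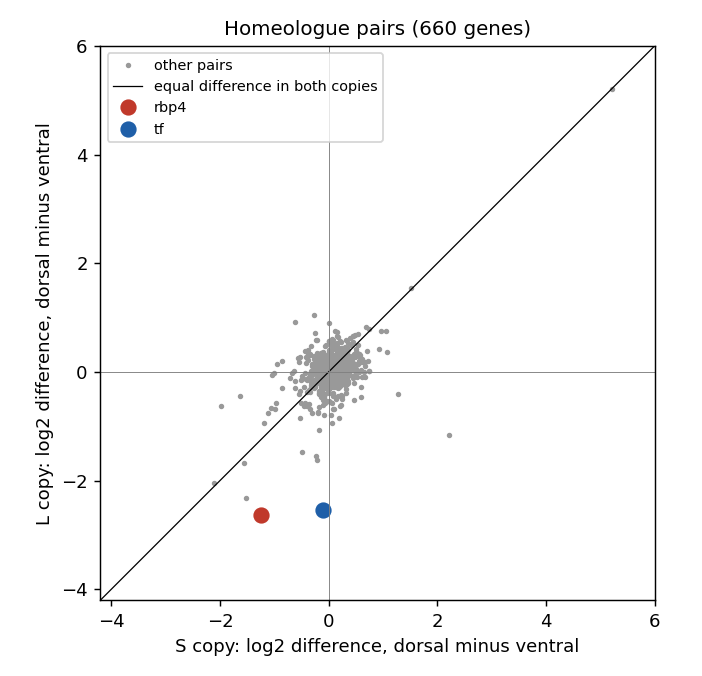
Log2 difference, dorsal minus ventral, of the L copy (vertical) against that of the S copy (horizontal) for 660 genes with both copies tested, with rbp4 in red and tf in blue. Both lie below the line of equal difference, tf at -2.55 for L and -0.11 for S and rbp4 at -2.63 for L and -1.23 for S.

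The dorsal pools differed from each other in all 5 carriers. Dorsal replicate 2 read above dorsal replicate 1 by 3.75 times for rbp4.L, 1.87 times for rbp4.S, 2.87 times for ttr.L, 5.92 times for tf.L and 3.49 times for tf.S. All 5 had their lowest value of the 4 arrays in dorsal replicate 1, and ttr.L and tf.S had their highest in dorsal replicate 2. On the log2(intensity + 6) scale the gap was 1.80 for rbp4.L, 0.89 for rbp4.S, 1.50 for ttr.L, 1.93 for tf.L and 1.28 for tf.S. Dorsal replicate 2 lay above dorsal replicate 1 in 52.0% of all tested probe sets and by at least 1 log2 unit in 3.04%, against 5 and 4 of the 5 carriers. The ventral pools were closer, with log2 gaps (replicate 2 minus replicate 1) of -0.14 for rbp4.L, -0.003 for rbp4.S, 0.34 for ttr.L, -0.72 for tf.L and -0.67 for tf.S.

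**Figure D4:**
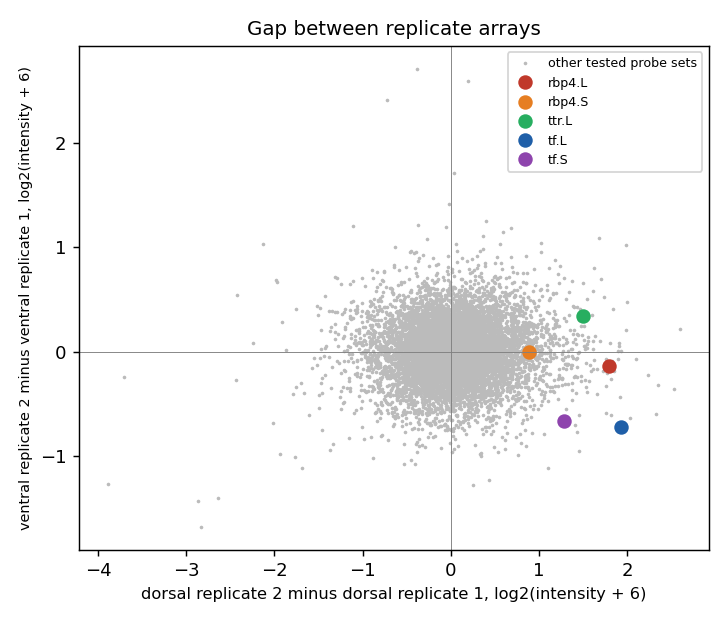
Gap between replicate arrays on the log2(intensity + 6) scale, dorsal (horizontal) and ventral (vertical), each replicate 2 minus replicate 1, for 9294 tested probe sets in grey and the 5 carriers in colour. The carriers lie to the right, from 0.89 to 1.93, while their ventral gaps lie between -0.72 and 0.34.

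Other measures separated the dorsal pools too. Transcripts of liver markers ran the same way as the carriers: of 10 tested liver marker genes, 10 read higher in dorsal replicate 2 than in dorsal replicate 1, and their summed intensity was 1021 and 2407 in dorsal pools, against 2898 and 2818 in ventral pools. Without the gene itih2.S the sums of the other 9 were 974 and 2342 in dorsal pools, against 1865 and 1932 in ventral pools, so that dorsal replicate 2 had the highest. That sum was mostly apoa1.L, apoa1.S and apob.S, at 620, 675 and 590 in dorsal replicate 2. Of the 9 genes, only apoa1.S and apob.S themselves read highest on that array. Of the 10, only itih2.S passed in limma, on the ventral side, as did 11 of all 5201 genes tested. The marker lists too were chosen with earlier results of these data known. The median log2 difference of the 10 was -0.48. The gene itih2.S stood at 47.6 and 64.8 in dorsal pools, against 1033 and 886 in ventral pools. The fibrinogen gene fga.S stood at 37.4 and 111 in dorsal pools, against 301 and 254 in ventral pools. The log2 differences of apoa1.S (-0.07), serpinc1.L (-0.11) and ahsg.L (-0.21) lay near 0, and that of apob.S was 0.58. Exocrine and early pancreas markers ran the other way, with 0 of 5 higher in dorsal replicate 2 and sums of 8448 and 4327 in dorsal pools, against 7825 and 4670 in ventral pools. Skeletal muscle markers summed to 388 and 318 in dorsal pools, against 718 and 969 in ventral pools. Of the 9 tested, 2 (ckm.L and atp2a1.S) read higher in dorsal replicate 2 than in dorsal replicate 1. Their median log2 gap, dorsal replicate 2 minus dorsal replicate 1, was -1.20 over the 9. Blood markers summed to 3344 and 2426 in dorsal pools, against 4094 and 5317 in ventral pools. The blood sum was mostly hbd.S, at 3109 and 2184 in dorsal pools, against 3645 and 4667 in ventral pools. Of the 6 blood markers, 2 (mpo.L and epx.L) read higher in dorsal replicate 2 than in dorsal replicate 1. Intestine markers ran the same way as liver markers, with 3 of 3 tested higher in dorsal replicate 2 than in dorsal replicate 1. Their median log2 gap between these arrays was 0.69, against 0.74 for the liver markers. Endocrine pancreas markers read higher in dorsal replicate 2 in 4 of 5, with a median gap of 0.44. Of all genes tested, 53.9% read higher in dorsal replicate 2.

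The poly(A) spike controls, bacterial transcripts that are read on their own probe sets, had geometric means of 160 and 83.8 in dorsal pools, against 115 and 211 in ventral pools, over 12 probe sets. The 3′ to 5′ ratio of the Gapd control probe sets, often taken as a sign of RNA length, was 9.69 and 5.53 in dorsal pools, against 7.52 and 7.55 in ventral pools. Dorsal replicate 1 thus had the highest Gapd ratio and dorsal replicate 2 the lowest. For the actin control the 5′ probe set read above the 3′ one on every array, unlike Gapd. Its 5′ to 3′ ratio was 4.61 and 10.6 in dorsal pools, against 6.54 and 6.94 in ventral pools. In both controls the 3′ signal relative to the 5′ signal was thus highest in dorsal replicate 1 and lowest in dorsal replicate 2. As the controls differed in level though not in this order, the level of such a ratio does not give RNA length on its own. The part of these measures in the carrier values was not tested.

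Among other plasma carriers, lipoproteins and binding proteins made mainly by liver, 0 of 10 tested genes (11 on the array) passed in limma in either direction. The unadjusted p was under 0.05 for 2, both on the ventral side. Over all 5201 genes tested, 281 had such a p on that side, and 11 were called lower and 7 higher in dorsal buds. The median log2 difference of the 10 carriers was -0.20, beside 0.05 over all genes tested. The gene for the vitamin D binding protein, gc.S, read 26.6 and 55.6 in dorsal pools, against 121 and 67.6 in ventral pools. The log2 difference was -1.11 (adjusted p = 0.447), while a second probe set of the gene gave -1.85 (adjusted p = 0.372). The other gene with an unadjusted p under 0.05 was ambp.L, at -0.29 by the brightest of its 5 probe sets (adjusted p = 0.559). These probe sets ran from -1.52 (adjusted p = 0.222) to 0.33 (adjusted p = 0.723), so its value in the list depended on the probe set chosen. The apolipoprotein genes, like ttr.L, overlapped between the buds. That of high density lipoprotein, apoa1.L, read 222 and 620 in dorsal pools, against 493 and 631 in ventral pools (-0.58, adjusted p = 0.753). That of low density lipoprotein, apob.S, read 229 and 590 in dorsal pools, against 200 and 300.1 in ventral pools (0.58, adjusted p = 0.753). All 10 genes of the list read higher in dorsal replicate 2 than in dorsal replicate 1, as did 53.9% of all genes tested.

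Of the wider set of proteins secreted by hepatocytes, which holds some of these carriers too, 31 of 34 genes were tested. In limma 4 passed, all lower in dorsal buds: itih2.S (-3.97, adjusted p = 0.000742), the clotting factor genes f12.L (-2.30, adjusted p = 0.0471) and f9.S (-2.27, adjusted p = 0.0133), and proc.S, the gene of the anticoagulant protein C (-1.85, adjusted p = 0.0333). An unadjusted p under 0.05 was reached by 13 genes lower and 1 gene higher in dorsal buds, and the list's median was -0.58. Over all 5201 genes tested, 11 were called lower and 7 higher in dorsal buds, and 281 and 208 had an unadjusted p under 0.05 in these directions. As the gene lists were chosen with earlier results of these data known, these counts are a description. The antiprotease gene serpina1.L was at -2.32 and did not pass (adjusted p = 0.112). For comparison with tf.L, f9.S read 8.12 and 7.19 in dorsal pools, both below the highest Tag control, against 54.6 and 65.4 in ventral pools. The dorsal values of f12.L (1.76 and 6.50) and proc.S (10.9 and 13.8) also lay below 21.5, the highest Tag control of any array. The size of these differences thus depends on background and the pseudocount. The difference of tf.L, at -2.55, was no smaller than that of f9.S, but its SE was 0.58, against 0.22 for f9.S.

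Genes that handle the cargo of these carriers were read next, beginning with retinol. Of 7 tested retinol handling genes (16 on the array), 0 passed in limma, the unadjusted p was under 0.05 for 2 genes higher and 1 gene lower in dorsal buds (208 and 281 of the 5201 genes tested), and the median was -0.18. The lower gene was aldh1a1.L, at -0.55 (13.5 and 11.4 in dorsal, against 20.6 and 21.2 in ventral pools, adjusted p = 0.559). The retinoic acid binding gene crabp2.L was at -0.79 (13.9 and 29.8 in dorsal, against 49.8 and 32.0 in ventral pools, unadjusted p = 0.0529, adjusted p = 0.585). The retinoic acid synthesis gene aldh1a2.L was at 0.63 (46.1 and 49.6 in dorsal, against 30.5 and 27.1 in ventral pools, adjusted p = 0.424), and the retinol dehydrogenase family gene rdh13.L at 0.61 (adjusted p = 0.566).

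Of 10 tested iron handling genes (11 on the array), 0 passed in limma. The unadjusted p was under 0.05 for ireb2.L alone, on the ventral side, as for 281 of all 5201 genes tested. The median was 0.10. The ferric reductase gene cybrd1.L read 29.9 and 89.6 in dorsal pools, against 36.9 and 30.4 in ventral pools (0.57, adjusted p = 0.759). The iron regulatory protein genes ireb2.L and aco1.L were at -0.54 (adjusted p = 0.557) and -0.37 (adjusted p = 0.803). Thyroid hormone handling could hardly be read, with 3 of 12 genes bright enough to be tested and 0 past the threshold in limma. The inactivating deiodinase gene dio3.L was at 0.64 (32.1 and 31.8 in dorsal, against 23.6 and 14.1 in ventral pools, unadjusted p = 0.0414, adjusted p = 0.551), rxra.L, a nuclear receptor partner, at -0.15 and the corepressor gene ncor1.S at -0.04.

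Likeness of pattern was measured as the root-mean-square distance between log2 values centred on each gene's own mean over the 4 arrays. A gene's mean level thus did not count, but the size of its changes did. The nearest profile to rbp4.L was that of tf.L, at 0.21 log2 units, closer than that of its own homeologue rbp4.S at 0.77. The arrays of rbp4.S stood in the same order as those of rbp4.L, with a smaller bud difference (-1.23, against -2.63). Among probe sets with 1 gene symbol, 1 per gene and outside the carriers, rbp4.L lay nearest to serpina1.L (0.23), the prostaglandin D synthase gene ptgds-b (0.25), of the same lipocalin family as rbp4, and fga.S (0.35). The nearest to tf.L were serpina1.L (0.24), gc.S (0.36) and ptgds-b (0.37), while tf.S was 1.24 away. For gc.S this was its second, dimmer probe set, at 5.74 and 35.4 in dorsal pools, against 91.7 and 58.2 in ventral pools. Of these neighbours, ptgds-b read 1.02 and 8.81 in dorsal pools, against 59.3 and 53.3 in ventral pools. Its log2 difference of -2.61 ± 0.36 (SE) did not pass in limma (adjusted p = 0.0553). Both dorsal values lay below the highest Tag control of their arrays (11.7 and 12.6), so the size of the difference depends on background and the pseudocount.

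The remaining carriers had other neighbours. For rbp4.S these were slc9a3r1.L, a scaffold of the apical membrane (0.05), the annexin gene anxa4.L (0.09) and the docking protein gene dok4.L (0.14). For ttr.L they were the amino acid transporter gene slc43a2.S (0.06), arf5.L, a small GTPase of vesicle traffic (0.07), and sae1.L, of the SUMO activating enzyme (0.10), and among the carriers tf.S lay nearest to it at 0.39. For tf.S they were ovch2l.L (0.05), bcl2l2.S (0.12) and tmem167b.L (0.15). With 4 arrays many genes share a pattern, and the distances are a description.

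**Figure D5:**
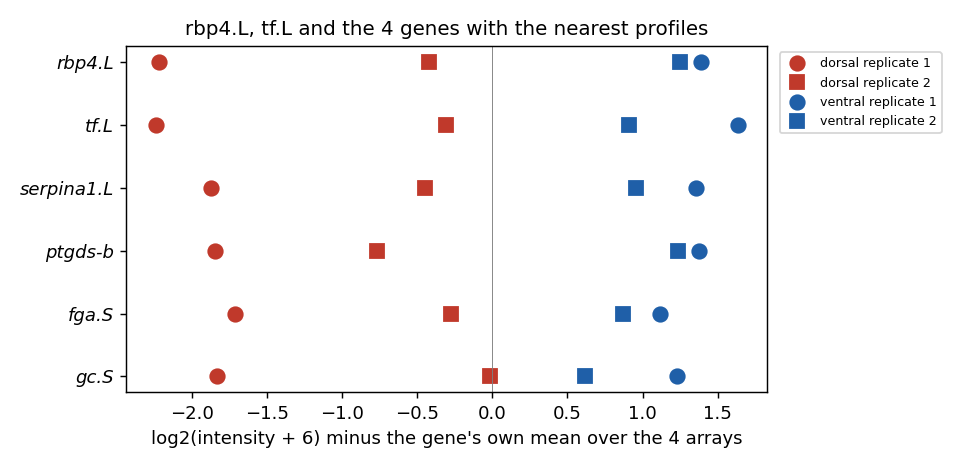
Log2(intensity + 6) minus each gene's own mean over the 4 arrays, for rbp4.L, tf.L and the genes with the nearest profiles to them, with gc.S by its second probe set. Dorsal arrays are red, ventral arrays blue, circles replicate 1 and squares replicate 2. In each row dorsal replicate 1 is lowest, dorsal replicate 2 next and both ventral arrays highest.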

How the data were processed

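The deposited values are linear intensities, 1 column per array, and the authors' use of MAS5 is recorded per the labels' processing notes without a version; scaling target, background settings and detection calls are not given in the sources used here. Probes were named through the platform annotation (9304 probe sets with 1 symbol, 195 with several, 5992 with none), updated by gene identifier in a RefSeq table of the assembly Xenopus_laevis_v10.1 (9227 matched, 2 changed). The labels give 1 to 5 ng of RNA per pool, while the labelling protocol names 10 µg as typical input; an amplification step is not recorded.

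Before log2, 6 was added to each value, a pseudocount set at their 20th percentile. Probe sets above the 40th percentile of mean log2 entered the test, for which limma 3.58.1 was run in R 4.3.3 (intensity trend, no covariate, both groups, 2 arrays each), after a check on simulated data. Homeologue pairs used the brightest probe set of each copy. Members and gene lists were chosen with earlier results of these data known. Named from each list were genes past the threshold and the 3 with the largest difference, and for each member the 3 nearest profiles among tested probe sets with 1 symbol. Alternatives changed the pseudocount, filter, scaling, variance model, replicate block, arrays and floor.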

Additional observations from a re-analysis of the deposited data

How the results depend on the processing

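No alternative turned the direction of rbp4.L, rbp4.S, tf.L or either pair. The difference of tf.S was 0.12 with values raised to the highest Tag control (chosen after seeing the data), and ran from -0.75 to 0.54 over the fits that left out 1 array, positive without dorsal replicate 1 or ventral replicate 1. That of ttr.L ran from -0.58 to 0.92, negative without dorsal replicate 2 or ventral replicate 1 (-0.0045). Leaving out 1 array gave 0 to 4 called carriers, 4 to 902 called probe sets and 1 to 63 called pairs, where all arrays gave 0, 24 and 0; without a dorsal array, the lone one is assumed to vary like the ventral pair. Called probe sets numbered 13 with the filter at the 60th percentile, which tested fewer and removed tf.S, and 0 with values raised to the Tag control. Called pairs numbered 1 with 4 times the pseudocount and 1 with no filter, tf in both. With the replicate number as a block, 67 probe sets, 11 pairs, with tf and rbp4 among them (adjusted p = 3.47e-09 and 3.79e-05), and 1 carrier (rbp4.L, adjusted p = 0.0253) were called, but the numbers are not known to pair pools: their deviations correlated at 0.047 across probe sets. The cause of these changes was not tested. Without detection calls, whether a dim probe set such as tf.S was detected is unknown.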
